A study of Mus musculus with 3 samples.

Results

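The left ventricle of mice given isoproterenol was compared with that of saline controls across 12415 genes, those that reached the background level on the higher of the 2 arrays. These were drawn from 23740 genes with a symbol, and from 25206 probe sets in all. Isoproterenol is a synthetic catecholamine that acts on beta-adrenergic receptors. All animals were male C57BL/6N mice of 8 to 12 weeks that carried an osmotic pump, and their ventricles were taken at day 14. Control mice had a vehicle pump and saline injections. Iso mice had a vehicle pump and received isoproterenol into the peritoneum at 50 mg/kg per day for 11 days. In the third group, Iso+Insl6, the pump delivered the relaxin-family peptide INSL6 at 50 to 70 nmol/kg per day beside the same isoproterenol, and its level is given beside single genes for orientation. RNA of 3 samples was pooled for each array and each group had 1 array, so no value has an error between animals, no test of treatment exists, and genes are described by size alone.

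Beta-adrenergic receptors on heart muscle cells raise cyclic AMP, which activates protein kinase A and quickens and strengthens the beat. Sustained stimulation is known to lead to growth of the muscle, loss of myocytes and fibrosis. Heart muscle cells also hold a circadian clock, in which the activators ARNTL and CLOCK drive the genes of their own repressors, the PER, CRY and REV-ERB proteins, and of output factors such as DBP. That clock sets a daily rhythm in metabolic genes of the heart.

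Levels are log2 values, so a difference of 1 is 2-fold, and differences are Iso minus Control throughout. The background level of 4.16 was the median of all deposited values, and a fold against a level below it is given as a lower bound. Of the 12415 genes, 6572, or 52.9%, had the same value on both arrays to the 2 decimals deposited, 2450 were higher on Iso and 3393 lower. The median difference was 0.00, and the central 95% of genes lay between -0.39 and 0.36. Across genes, which are not independent replicates, Pearson's r between the arrays was 0.992. All 12 ventricular myocyte markers lay above background, whereas 4 of 6 atrial markers, Myl7, Myl4, Sln and Bmp10, lay below it.

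At a threshold of 1.5-fold (0.585 on the log2 scale), 105 genes were higher on the Iso array, 0.846% of those compared, and 128 were lower, 1.03%. Together these 233 genes were 1.88%. At 2-fold, 19 genes (0.153%) were higher and 32 (0.258%) lower, 51 in all (0.411%). Both arrays lay above background for 79 of the higher and 91 of the lower genes, while 26 higher genes lay below background on Control and 37 lower genes below background on Iso. Predicted genes, olfactory receptors, antigen receptor segments and small RNAs made up 45 of the 233 and are not named. Just past the threshold stood Adamtsl3 (4.88 on Control, 5.47 on Iso) and Armc10 (6.53 and 5.94), and just short of it the cyclin Ccna2 (4.74 and 4.16).

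The share of genes past 1.5-fold varied little with level. Among 6150 genes between 4.16 and 6 on the higher array it was 2.1%, among 4863 genes between 6 and 8 it was 1.69%, among 1187 between 8 and 10 it was 1.6%, and among the 215 genes at 10 or above it was 1.4%. Identical values became rarer with level, from 60.4% in the lowest band to 25.1% in the highest. The plot of all genes shows the clock genes Dbp and Arntl at opposite ends of the range, with few abundant genes beyond the threshold.

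**Figure D1:**
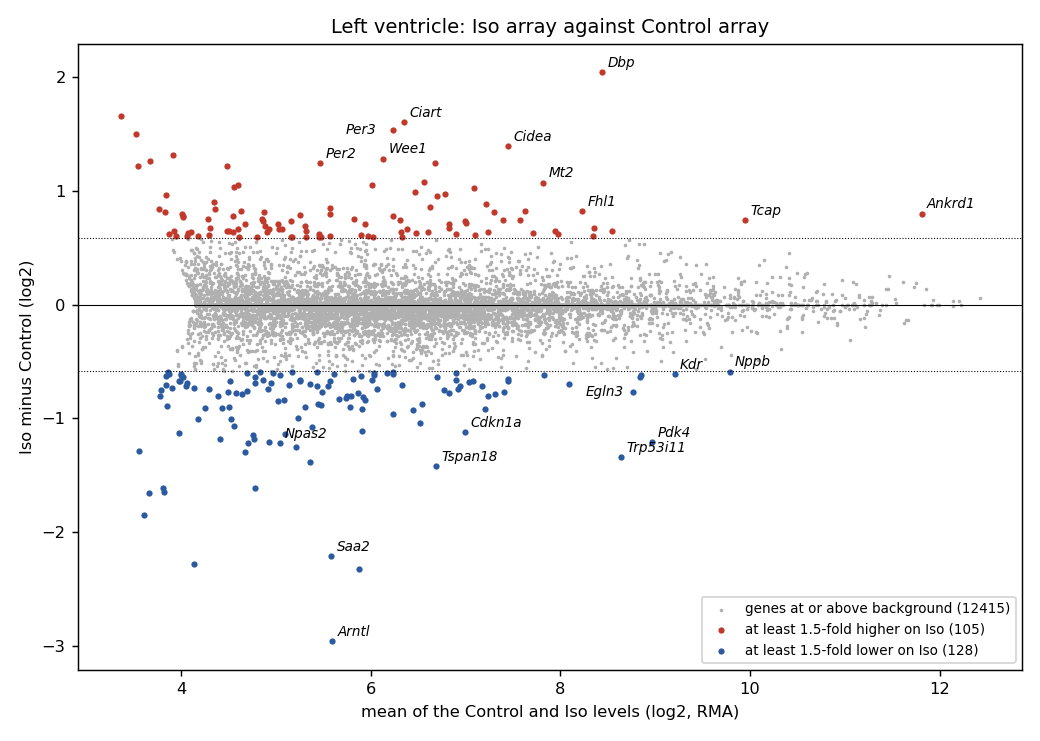
Difference between the Iso and Control arrays (log2, vertical axis) against the mean of both levels (log2, horizontal axis) for 12415 genes at or above background on the higher array. Red points are the 105 genes at least 1.5-fold higher on Iso and blue points the 128 at least 1.5-fold lower; dotted lines mark the threshold. Arntl lies lowest at -2.96 and Dbp highest at 2.04.

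The clock genes held the largest differences. Lists of activators, repressors, PAR bZIP factors and other cycling genes covered the clock, with 42 genes above background, and 14 of these passed 1.5-fold against 1.88% of all genes. The lists were chosen with earlier results of these data known, so that count is a description only. The labels used here give no hour of day for the harvest, and harvest hour and treatment cannot be told apart.

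Among the 7 activators, 3 were at least 1.5-fold lower and none higher. Arntl, the factor without which the clock does not run, stood at 7.07 on Control, 4.11 on Iso and 4.08 on Iso+Insl6, and was at least 7.52-fold lower on Iso. Npas2, a partner that can replace Clock, stood at 5.65, 4.43 and 4.86 on the same arrays, a 2.33-fold difference. Clock itself stood at 9.16, 8.54 and 8.41, a 1.54-fold difference. The Control array was the high one for all 3. Other activators scarcely differed: Rora, an orphan receptor that switches Arntl on, stood at 7.46 on Control and 7.56 on Iso, and Arntl2 at 4.48 and 4.54.

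Of 15 repressors and their regulators above background, 6 passed 1.5-fold, all of them higher, and the list's median was 0.19 against 0.00 over all genes. Ciart, a repressor that binds the ARNTL and CLOCK pair, stood at 5.55 on Control, 7.15 on Iso and 6.98 on Iso+Insl6, or 3.03-fold higher on Iso. Per3 stood at 5.47, 7.0 and 7.07 (2.89-fold), Per2 at 4.85, 6.09 and 6.46 (2.36-fold) and Per1 at 6.58, 7.60 and 7.96 (2.03-fold). All 3 period genes were therefore lowest on Control. Bhlhe41, which competes with ARNTL and CLOCK for their DNA element, stood at 6.06, 7.30 and 7.0 (2.36-fold). The REV-ERB genes, repressors of Arntl, differed in size: Nr1d2 stood at 8.22, 8.87 and 8.92, and Nr1d1 at 8.69, 8.74 and 8.41. The cryptochromes differed little, Cry2 by 0.33 and Cry1 by 0.04, and the casein kinase gene Csnk1d, whose enzyme marks PER proteins for breakdown, stood at 7.16 on all 3 arrays.

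Of the PAR bZIP factors, which bind the D-box, and their antagonist on that element, 2 of 4 passed 1.5-fold, both higher. Dbp stood at 7.42 on Control, 9.46 on Iso and 9.38 on Iso+Insl6, a 4.11-fold difference that was the largest among higher named genes. Hlf stood at 5.94, 6.68 and 6.73 (1.67-fold), and Tef at 5.49, 6.05 and 6.16, just under the threshold. The antagonist Nfil3 stood at 6.16, 5.58 and 5.58, also short of the threshold.

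Genes known to cycle in most organs but outside the core loop leaned the same way. Of 16 above background, 13 were higher and 1 lower, with a median of 0.31, and 3 passed 1.5-fold. Among all 12415 genes 2450 were higher, 3393 lower and 0.846% higher past 1.5-fold. Wee1, the kinase that holds cells before mitosis and a target of the clock, stood at 5.49, 6.77 and 6.76 on Control, Iso and Iso+Insl6. The flavin monooxygenase gene Fmo2 stood at 7.03, 7.77 and 8.36, and the deubiquitinase gene Usp2 at 8.04, 8.64 and 8.68. The coenzyme Q binding gene Coq10b differed by 0.47, Tsc22d3, a glucocorticoid-induced leucine zipper, by 0.45, and Tspan4 by 0.46. Lpin1, at 8.97 and 8.96, and Rbm3, a cold-inducible RNA-binding protein at 4.66 on all arrays, did not share the shift.

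**Figure D2:**
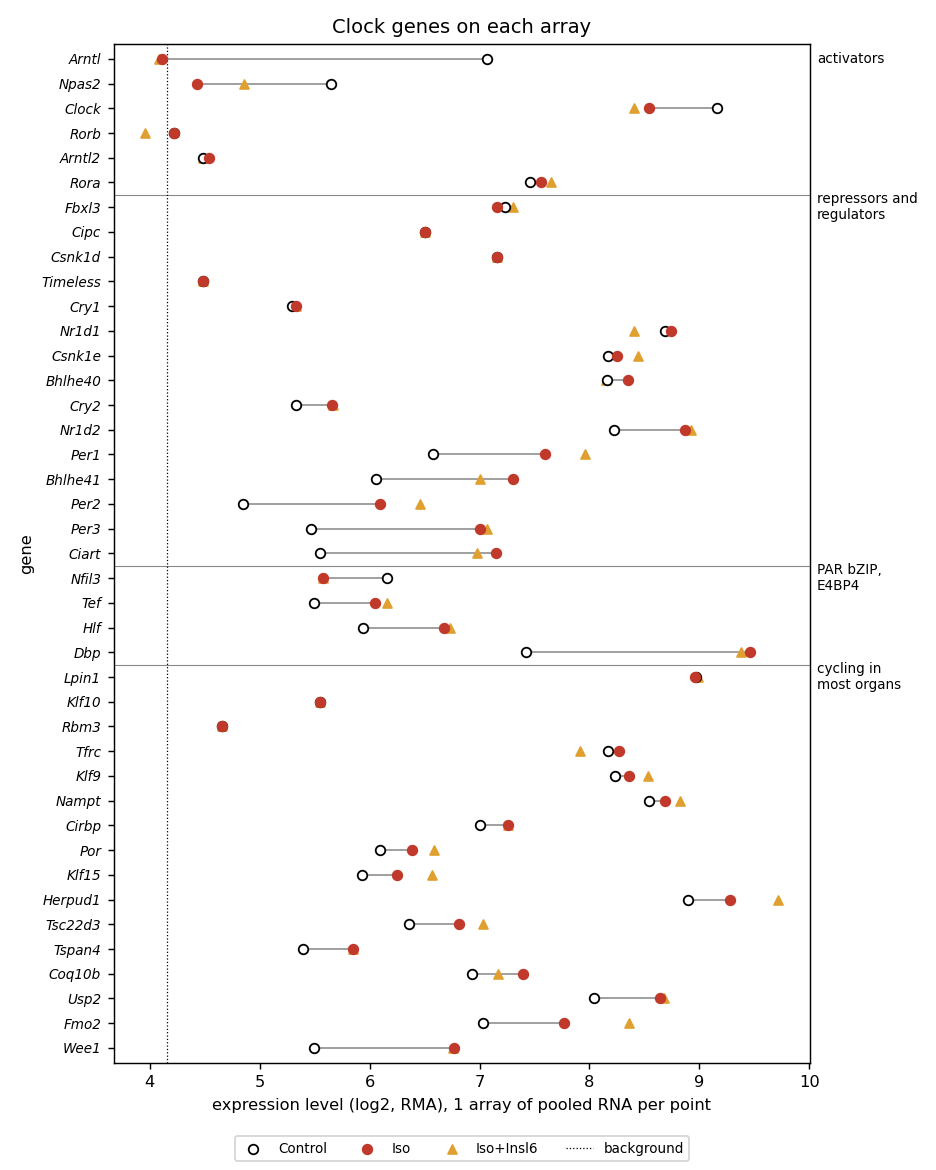
Expression level (log2, horizontal axis) of clock genes above background (vertical axis; 1 gene of the lists is not shown) on the Control (open circles), Iso (red circles) and Iso+Insl6 (triangles) arrays, 1 array of pooled RNA per point; the dotted line is background. Arntl, Npas2 and Clock are highest on Control, while Ciart, the 3 Per genes, Bhlhe41, Nr1d2, Dbp and Wee1 are lowest there.

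Promoter sequences are shown for 5 of these genes because they hold the short elements through which the clock proteins are known to act; they were picked among genes with large differences. The E-box, CACGTG, is bound by the ARNTL and CLOCK pair, the D-box, TTATGTAA or TTACGTAA, by DBP, HLF, TEF and NFIL3, and the ROR element, TAGGTCA, by the ROR and REV-ERB receptors. Sequences are RefSeq's for GRCm38.p6 and run from 250 bases before to 50 bases after an annotated start, 5′ to 3′ on the gene's strand, with elements found on either strand in capitals. Arntl and Per1 have 2 such windows each, and the one with an element is printed.
Ciart, chr3:95882179-95882478, minus strand: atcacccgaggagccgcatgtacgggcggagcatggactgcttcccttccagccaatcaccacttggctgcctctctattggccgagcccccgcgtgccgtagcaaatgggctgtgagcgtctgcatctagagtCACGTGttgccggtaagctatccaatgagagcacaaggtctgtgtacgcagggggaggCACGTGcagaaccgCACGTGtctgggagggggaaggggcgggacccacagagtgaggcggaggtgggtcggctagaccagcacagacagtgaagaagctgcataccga
Per1, chr11:69098699-69098998, plus strand: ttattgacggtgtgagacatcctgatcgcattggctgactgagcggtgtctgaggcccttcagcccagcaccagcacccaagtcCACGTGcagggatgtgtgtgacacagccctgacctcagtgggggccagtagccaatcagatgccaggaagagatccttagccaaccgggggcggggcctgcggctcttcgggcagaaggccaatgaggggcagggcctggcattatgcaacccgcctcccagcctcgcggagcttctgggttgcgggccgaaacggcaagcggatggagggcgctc
Bhlhe41, chr6:145865371-145865670, minus strand: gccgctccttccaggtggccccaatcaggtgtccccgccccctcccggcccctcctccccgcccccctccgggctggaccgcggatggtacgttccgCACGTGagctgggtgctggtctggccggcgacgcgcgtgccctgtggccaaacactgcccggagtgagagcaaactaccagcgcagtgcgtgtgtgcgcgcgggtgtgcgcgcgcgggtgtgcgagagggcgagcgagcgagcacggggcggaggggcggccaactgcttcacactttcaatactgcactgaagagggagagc
Per3, chr4:151044616-151044915, minus strand: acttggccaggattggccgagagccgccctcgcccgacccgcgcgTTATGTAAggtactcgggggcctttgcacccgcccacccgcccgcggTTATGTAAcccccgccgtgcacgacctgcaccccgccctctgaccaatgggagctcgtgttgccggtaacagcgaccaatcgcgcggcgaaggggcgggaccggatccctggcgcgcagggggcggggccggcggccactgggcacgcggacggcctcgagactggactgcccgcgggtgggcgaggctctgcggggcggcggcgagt
Arntl, chr7:113207261-113207560, plus strand: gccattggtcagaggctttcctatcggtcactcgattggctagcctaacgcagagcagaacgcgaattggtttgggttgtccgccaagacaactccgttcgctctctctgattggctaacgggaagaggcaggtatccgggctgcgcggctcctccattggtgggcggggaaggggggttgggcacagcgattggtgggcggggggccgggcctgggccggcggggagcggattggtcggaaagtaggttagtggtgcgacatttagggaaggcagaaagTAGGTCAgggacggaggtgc

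Counted from 1 at the 5′ end of each window, the E-boxes of Ciart begin at bases 135, 193 and 207, that of Per1 at 85 and that of Bhlhe41 at 98. The D-boxes of Per3 begin at bases 46 and 93, and the ROR element of Arntl at base 281, after its start site. Per3 holds no E-box in this window, and Dbp none of the 3 elements. Among clock repressors above background, 5 of 11 with a promoter sequence held an E-box, 45.5%, and 2 held a D-box. Holders included genes that scarcely differed, with an E-box in Cry1 (0.04) and Cipc (0.00) and a D-box in Timeless (0.00). Over all 32851 promoter windows the shares were 7.15% for the E-box, 1.06% for the D-box and 2.61% for the ROR element. Among the 9596 genes above background with a sequence they were 11.6%, 0.823% and 2.32%, and among the 75 higher and 96 lower genes past 1.5-fold with a sequence the E-box stood in 12.0% and 12.5%. The ROR element stood in 5.33% of those higher and 5.21% of those lower genes, counts of 4 and 5 genes. A match is a description of letters in a window, not a site or a cause.

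Transcripts of the receptors and of the cyclic AMP pathway that isoproterenol acts through differed little, as did most genes on these arrays. None of 16 genes for beta-adrenergic receptors, G proteins and desensitisation reached 1.5-fold, where 1.88% of all genes did. Of the 16, 10 had the same value on both arrays, against 52.9% of all genes. The main receptor of heart muscle, Adrb1, stood at 6.40 on Control, 6.25 on Iso and 6.25 on Iso+Insl6, while Adrb3 lay below background. The receptor kinase gene Grk5 (7.03 and 6.77 on Control and Iso) and the G protein regulator gene Rgs2 (7.11 and 6.86) had the largest differences in this list. None of 26 genes of cyclic AMP synthesis, breakdown and protein kinase A passed either, with a median of 0.00. The phosphodiesterase genes went both ways, Pde1c by 0.23 and Pde2a by -0.23, and the cyclase gene Adcy6 stood at 7.62, 7.84 and 8.15. Prkaca, the catalytic subunit of protein kinase A, stood at 9.38, 9.25 and 9.18.

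Downstream of cyclic AMP, 1 of 15 CREB target and cofactor genes passed the threshold, against 1.88% of all genes. Sik1, a kinase that switches off CREB coactivators, stood at 6.91 on Control, 5.98 on Iso and 6.50 on Iso+Insl6, 1.91-fold lower on Iso. The phosphatase gene Dusp1, an early response gene, stood at 8.78, 8.21 and 8.30. Creb1 was at 6.78 and Crem at 4.54 on both arrays, and the orphan receptor gene Nr4a1 at 5.93.

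In the insulin and PI3K pathway 2 of 27 genes were at least 1.5-fold lower and none higher, against 1.03% of all genes lower. Irs1, which docks PI3K to the insulin receptor, stood at 6.98 on Control, 6.11 on Iso and 6.33 on Iso+Insl6 (1.83-fold). Ddit4, an inhibitor of mTOR, stood at 5.73, 4.73 and 5.95. Akt2, the kinase through which insulin moves glucose transporters, stood at 8.39, 7.88 and 7.97, while Akt1 was at 8.19 on all 3. Outside the list, and chosen after values were seen, Pik3ip1, an inhibitor of PI3K, stood at 6.90, 7.71 and 7.90 and the kinase gene Sgk1 at 5.92, 5.31 and 5.65. Irs1, Akt2 and Pik3ip1 shared a Control array that stood apart from both isoproterenol arrays, whereas Ddit4 was low on Iso alone.

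In the other signalling lists differences were small, as over all genes, of which 1.88% passed 1.5-fold. No gene passed 1.5-fold among 23 MAP kinase genes and their inhibitors (Map2k6, a kinase of p38, was furthest at 0.53), 21 Hippo genes, 22 Wnt genes (Wif1, a secreted inhibitor, at 0.52), 16 Notch genes, 20 BMP genes (Bmp6 at -0.42), 19 genes of the FGF, ERBB, PDGF and HGF pathways or 15 of the IL-6 family pathway (Socs3 at -0.39, Jak2 at 0.33), each with a list median of 0.00. The prostaglandin list (9 genes) and the thyroid hormone list (7 genes) also held none, with medians of -0.05 and -0.02. In the Notch list 13 of 16 genes had identical values, against 52.9% of all genes. Of 22 NF-kB and Toll-like receptor genes, Rel alone passed, at 7.23, 6.57 and 6.66 on Control, Iso and Iso+Insl6, and Bcl3 differed by -0.54.

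Genes of the contractile apparatus were largely level, and the differences lay in a few stress and Z-disc proteins. For comparison, 1.88% of all genes passed 1.5-fold and 52.9% were identical. Myh6, Tnnt2 and Tnni3 had the same value on both arrays, at 11.91, 12.22 and 11.97. Tcap, which caps titin at the Z-disc, was the only one of 12 ventricular markers past the threshold, at 9.58 on Control, 10.32 on Iso and 10.35 on Iso+Insl6 (1.67-fold). Ankrd1, a stretch-responsive partner of titin, stood at 11.41, 12.21 and 12.10, 1.74-fold higher on Iso. Fhl1, a LIM protein of the sarcomere, stood at 7.82, 8.64 and 8.64. These 3 genes were alike on both isoproterenol arrays.

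Among hypertrophy markers, Nppa stood at 10.99, 11.19 and 11.72, Acta1 at 8.50, 8.93 and 8.66, and Myh7 at 5.92, 5.71 and 5.84, all within 1.5-fold. Nppb, the B-type natriuretic peptide, was 1.51-fold lower on Iso at 10.08, 9.49 and 9.35, a difference of -0.59 that became -0.57 and missed 1.5-fold after centring each array. Lower as well were Abra, an activator of actin and serum response factor signalling (8.44, 7.74 and 7.63), Mylk4, a myosin light chain kinase (9.16, 8.52 and 8.86), and Rcan1, the feedback inhibitor of calcineurin (7.79, 7.02 and 6.83). Serum response factor itself, Srf, differed by -0.33. None of 21 cardiac transcription factor genes passed, where 1.88% of all genes did. Gata4 stood at 8.52 and 8.36 on Control and Iso and Mef2c at 7.75 and 7.92.

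Structural lists of the myocyte held no gene past 1.5-fold, where 1.88% of all genes passed. These lists were 20 intercalated disc genes, 24 dystrophin complex and costamere genes, 14 ion pump genes and 13 microtubule genes. Gja1, the main ventricular gap junction gene, stood at 10.19 and 10.21 on Control and Iso, and desmoplakin, Dsp, at 10.84 and 10.83. Microtubule genes were lower more often than higher, 9 against 2 where all 12415 genes gave 3393 against 2450, with a median of -0.07. Tubb6 stood at 6.32, 5.80 and 5.96, while Tuba1a was higher at 4.16, 4.66 and 4.66. The intermediate filament gene Nes passed at 5.47, 4.88 and 4.73, but with arrays centred or quantile normalized no gene of its list did.

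Of the 1402 genes at 8 or above on the higher array, 13 were at least 1.5-fold higher (0.927%) and 9 lower (0.642%), 22 in all (1.57%). Besides Dbp, Nr1d2, Usp2, Ankrd1, Tcap and Fhl1, the higher ones were Cidea, Mt2, Ephx1, Cd200, Abca8a, Ptp4a1 and Plxdc2. Ephx1, an epoxide hydrolase, stood at 7.22 on Control, 8.04 on Iso and 8.09 on Iso+Insl6, and Cd200, a surface protein that restrains myeloid cells, at 8.02, 8.69 and 8.64. The lower ones were Clock, Nppb, Abra, Mylk4, Trp53i11, Pdk4, Egln3, Kdr and Smarce1. Trp53i11, a p53-inducible gene, stood at 9.31, 7.97 and 7.79, which made it the largest difference in that direction at this level, 2.53-fold. Smarce1, a subunit of the SWI/SNF remodelling complex, stood at 8.14, 7.52 and 7.89. Just short of the threshold were beta-actin, Actb, at 9.71, 9.14 and 9.11, and the glycerol channel gene Aqp7 at 8.84, 8.28 and 8.27.

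**Figure D3:**
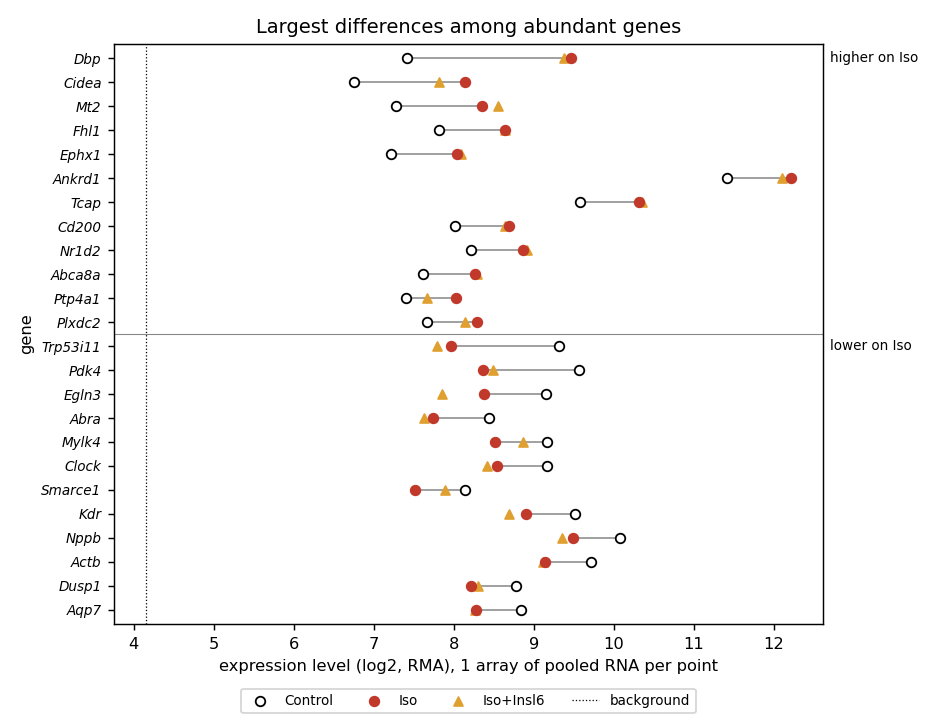
Expression level (log2, horizontal axis) on the Control (open circles), Iso (red circles) and Iso+Insl6 (triangles) arrays of the 12 genes with the largest difference in each direction among genes at 8 or above on the higher array; the dotted line is background. For Trp53i11 and Egln3 the Iso+Insl6 array lies still further from Control than Iso does, at 7.79 and 7.85. The same holds for other genes shown, among them Clock, Kdr, Nppb and Mt2.

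Among metabolic genes, those past 1.5-fold included regulators of fat use. Of 31 genes of fatty acid oxidation and its regulators 2 were higher and 23 lower, the median was -0.05, and the 3 past 1.5-fold were all lower, where over all 12415 genes 3393 were lower and 1.03% were lower past 1.5-fold. Pdk4, which blocks the entry of pyruvate into the citric acid cycle, stood at 9.57 on Control, 8.36 on Iso and 8.49 on Iso+Insl6 (2.31-fold). Angptl4, an inhibitor of lipoprotein lipase, stood at 5.0, 3.82 and 4.19 (at least 1.79-fold), and the carrier gene Ucp3 at 6.08, 5.25 and 5.46 (1.78-fold). The enzymes of the pathway themselves moved less: Acadm, a dehydrogenase of medium chains, stood at 11.40 and 11.35 on Control and Iso, and Cd36, which takes up fatty acids, at 11.12 and 11.08.

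In the list of triglyceride synthesis and lipolysis, 5 of 29 genes were higher and 17 lower, where 2450 of all 12415 genes were higher and 3393 lower. The list's median was -0.02, or 0.00 after centring each array. Cidea, a protein that enlarges lipid droplets, stood at 6.75 on Control, 8.14 on Iso and 7.82 on Iso+Insl6 (2.62-fold), while Scd4, a desaturase of the heart, stood at 5.67, 4.53 and 4.53 (2.20-fold lower). Droplet and lipase genes were lower by less: Plin5, the perilipin of oxidative tissue, stood at 7.92, 7.36 and 7.39, Fitm2, which aids droplet formation, at 8.68, 8.17 and 8.24, the hormone-sensitive lipase gene Lipe at 6.25, 5.83 and 6.12 and the monoglyceride lipase gene Mgll at 7.33, 6.93 and 6.88. The main triglyceride lipase gene, Pnpla2, was at 8.89 on all 3 arrays. Cidea was the only one of 7 brown fat markers above background, with Ucp1 and Dio2 at 3.49 on every array, and 0 of 6 white fat markers reached background.

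Other fuel pathways were nearly level, with few genes past 1.5-fold where 1.88% of all genes passed. Of 24 glycolysis genes 13 were higher and 4 lower, with a median of 0.015, where 2450 of all 12415 genes were higher and 3393 lower. Pgam1 alone passed, at 5.32, 4.02 and 5.08, at least 2.23-fold lower on Iso. It lay below background on Iso, and with both arrays above background no gene of the list was lower past 1.5-fold. In cholesterol synthesis Pmvk, phosphomevalonate kinase, stood at 5.17, 5.97 and 5.92, the only one of 23 past the threshold, and the median was 0.00. None passed among 20 genes of ketone body and branched-chain amino acid oxidation, 23 of mitochondrial dynamics and calcium uptake, 29 of autophagy and the lysosome, or 16 of creatine, adenylate kinase and AMPK, where Prkaa1, a catalytic subunit of AMPK, differed by 0.38. Xdh, xanthine dehydrogenase, stood at 7.16, 7.66 and 8.17.

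The oxidant, p53 and iron lists each held few genes past 1.5-fold, where 1.88% of all genes passed. Metallothionein Mt2, which binds zinc and copper, stood at 7.28 on Control, 8.35 on Iso and 8.55 on Iso+Insl6 and was the only one of 32 genes of oxidant production and defence past 1.5-fold; Hmox1 and Nqo1, targets of NRF2, had the same value on both arrays, at 4.93 and 7.36. Of 14 p53 targets above background, Cdkn1a, the inhibitor of cyclin-dependent kinases, was 2.17-fold lower (7.55, 6.43 and 6.70) and Gadd45a higher (6.00, 6.64 and 6.64), with Ccng1 at 11.28 and 11.29 on Control and Iso. In the iron list Hamp, the hormone hepcidin, stood at 4.86, 5.45 and 7.80, and Slc40a1, the iron exporter that hepcidin removes, at 5.87, 5.10 and 5.53.

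Genes of protein folding differed by small amounts, and 1 passed 1.5-fold. For comparison, 2450 of all 12415 genes were higher, 3393 lower and 1.88% past 1.5-fold in either direction. In the endoplasmic reticulum 4 of 26 were higher and 15 lower, the median was -0.09, and only the secreted factor gene Manf passed, at 6.14, 5.49 and 5.49. The chaperone genes Hspa5 (10.33, 9.84 and 9.79) and Calr (9.88, 9.51 and 9.62) stood lower within the threshold, and Herpud1 (8.90, 9.28 and 9.72) and Ddit3 (5.69, 6.11 and 5.86) higher within it. Of 21 cytosolic heat shock genes 5 were higher and 13 lower, none past the threshold, with Hsph1, a nucleotide exchange factor, furthest at 6.97, 6.45 and 6.53 and a list median of -0.06. None of 31 proteasome genes, 18 translation factor genes, 20 tRNA synthetase genes or 28 chromatin regulator genes passed, and 1 of 20 splicing genes did, U2af1 at 6.03, 6.62 and 6.31.

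In the cell division list 2 genes passed 1.5-fold, both lower, where 1.03% of all genes were lower past 1.5-fold. With both arrays above background 1 did. Of 23 cell division genes 12 lay above background, with a mean level of 5.16 on Control and 4.86 on Iso. Of these 9 were lower and 3 the same, and their median was -0.215. Over all 12415 genes 3393 were lower. Mcm7, part of the replication helicase, stood at 5.29 on Control, 4.55 on Iso and 5.55 on Iso+Insl6, Ccnb1, the mitotic cyclin, at 4.50, 3.77 and 4.51, and Mki67 at 5.30, 4.73 and 4.60. Without the filter on level the median was 0.00. Uhrf1, which maintains DNA methylation, went the other way, at 3.99, 4.60 and 4.26.

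**Figure D4:**
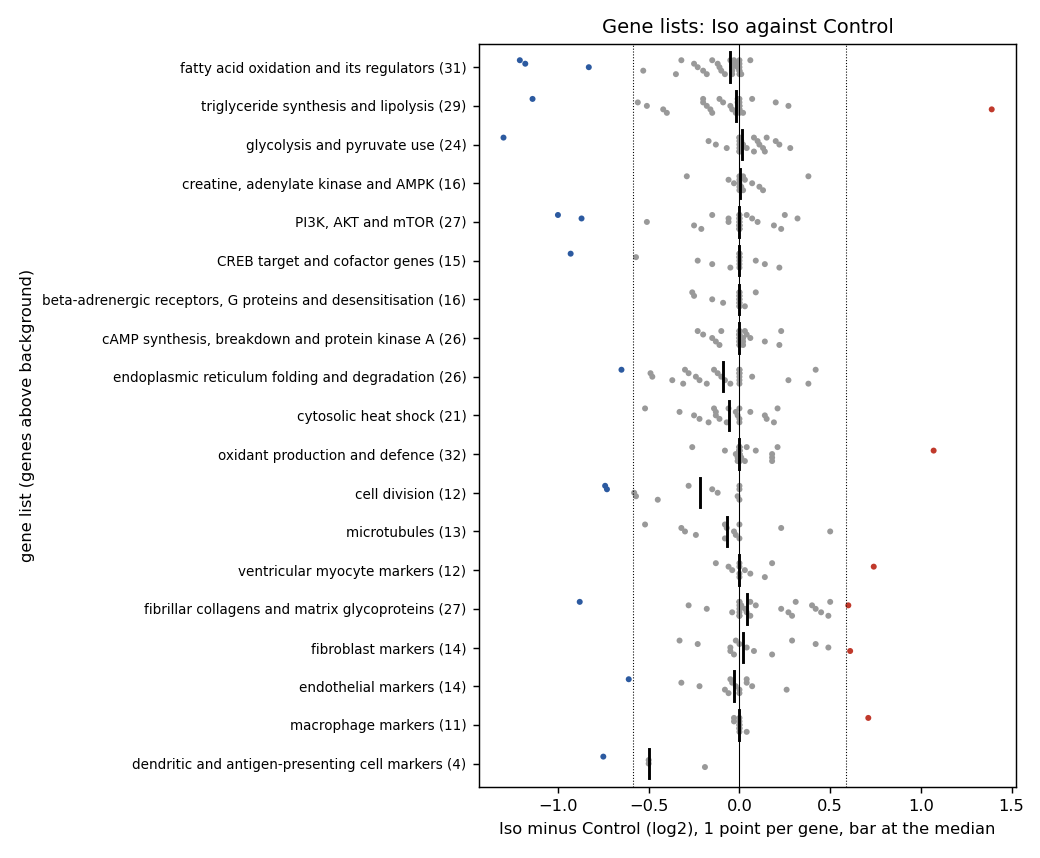
Iso minus Control (log2, horizontal axis) of every gene above background in 19 lists (vertical axis, number of genes in brackets); red points are at least 1.5-fold higher, blue points at least 1.5-fold lower, bars the list medians and dotted lines the threshold. Adrenergic and cyclic AMP genes cluster at 0, while fatty acid oxidation, cell division and antigen-presenting genes have medians of -0.05, -0.215 and -0.50.

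Matrix genes leaned upward by amounts mostly under the threshold. Of 27 genes of collagens and matrix glycoproteins 16 were higher and 4 lower, with a median of 0.04, and 1 passed in each direction. Over all 12415 genes 2450 were higher and 3393 lower, with 0.846% higher and 1.03% lower past 1.5-fold. Col14a1, a collagen that decorates fibrils, stood at 5.27 on Control, 5.87 on Iso and 5.94 on Iso+Insl6, and elastin, Eln, at 5.92, 5.04 and 5.40. Lum, a proteoglycan of collagen fibrils, stood at 6.96, 7.45 and 7.62, Loxl2, a collagen crosslinker, at 4.92, 5.42 and 5.39, and Postn, the myofibroblast protein periostin, at 7.24, 7.66 and 7.93. The main collagen gene Col1a1 was at 7.07 on both arrays. Among 14 fibroblast markers 7 were higher and 6 lower; Pi16 passed at 6.80, 7.41 and 7.13 and Pdgfra stood at 7.39 and 7.34 on Control and Iso. Genes outside the lists, chosen after values were seen, included the protease inhibitor Serpine2 (5.85, 6.63 and 6.62) and the alarmin Il33 (4.27, 4.93 and 5.23). In whole ventricle, fewer cells of a type and less RNA per cell cannot be told apart.

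Endothelial markers were mostly close to level. Of 14 endothelial markers 4 were higher and 8 lower, with a list median of -0.03, and Kdr alone passed 1.5-fold. Among all 12415 genes 2450 were higher, 3393 lower and 1.88% past 1.5-fold. Kdr, the main VEGF receptor, stood at 9.51 on Control, 8.90 on Iso and 8.69 on Iso+Insl6, and Eng, a BMP coreceptor, at 9.04, 8.72 and 8.83. Pecam1 was at 9.16 on all 3 arrays and Cdh5 at 10.03 and 10.01 on Control and Iso. Tspan18, a tetraspanin of endothelium, stood at 7.40, 5.98 and 6.03, a 2.68-fold difference. Egln3, a hydroxylase that marks hypoxia-inducible factor for breakdown, stood at 9.15, 8.38 and 7.85. Chosen after values were seen, the peptide Apln (5.45, 4.60 and 4.25), Rhoj, a small GTPase of endothelium (7.41, 6.74 and 6.95), Adamts9 (7.02, 6.38 and 6.57) and Btnl9 (7.22, 6.44 and 6.65) were also at least 1.5-fold lower. Each gene named here as lower was highest on Control.

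Immune cell markers above background were those of macrophages, all 11 measured, and some of antigen-presenting cells. None of 7 neutrophil or 11 lymphocyte markers reached background. For the counts below, 1.88% of all 12415 genes passed 1.5-fold and 3393 were lower. Among 11 macrophage markers Lgals3, a galectin of activated macrophages, passed at 5.58, 6.29 and 6.45 on Control, Iso and Iso+Insl6, while Csf1r was at 6.42 and Cd68 at 6.15 on both arrays. All 4 antigen-presenting markers above background, of 8 measured, were lower, and H2-Aa alone passed 1.5-fold; without the filter on level the list's median was -0.095 in place of -0.50. The class II genes H2-Aa stood at 7.15, 6.40 and 6.49 and H2-Ab1 at 6.91, 6.41 and 6.42, and the invariant chain Cd74 at 7.91, 7.41 and 7.46. Flt3 and Cd209a, which mark dendritic cells, lay below background. Prg4, the lubricant of mesothelium and joints, stood at 6.02, 7.10 and 7.29, but 5 of 7 mesothelial markers lay below background and Wt1 was lower, at 4.99 and 4.68.

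Genes best known from liver made up part of the lower set. All 13 liver markers lay above background on the ventricular arrays; on Iso 9 were lower, 2 higher and 2 the same, the median was -0.21, and 4 passed 1.5-fold, all lower, against 1.03% of all genes. Their mean level was 6.26 on Control, 5.98 on Iso and 8.20 on Iso+Insl6. Those past the threshold were haptoglobin, Hp (6.15, 5.35 and 7.44), and the 3 fibrinogen chains Fgg (6.23, 5.33 and 7.69), Fgb (6.69, 5.98 and 8.11) and Fga (5.19, 4.53 and 5.93). The other lower members of the list were within 1.5-fold. The 2 higher members were albumin, Alb, at 8.78 on Control and 8.97 on Iso, and Cyp2e1, at 5.74 and 5.81. The 2 identical members were transthyretin, Ttr, at 6.41 on both and Apoa1 at 5.29 on both. Gc and Mup3, outside the liver and acute phase lists and chosen after values were seen, were also lower on Iso. The vitamin D carrier gene Gc stood at 5.79, 5.07 and 7.92 and the urinary protein gene Mup3 at 7.77, 7.12 and 9.79.

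The acute phase list moved further. All 8 members above background, of 12 measured, were lower on Iso, 6 of them by at least 1.5-fold on listed values and 3 with both arrays above background, with a median of -1.095 against 0.00 over all genes. Saa2, a serum amyloid, stood at 6.69 on Control, 4.48 on Iso and 6.79 on Iso+Insl6, 4.63-fold lower on Iso. Orm1, a plasma carrier, stood at 5.76, 4.86 and 6.59 and the haem scavenger Hpx at 6.15, 5.33 and 7.22. Saa1, Saa4 and Orm2 lay below background on Iso, where Saa1 was at least 2.69-fold lower. They passed the filter through Control alone and so could only be lower. With both arrays above background the list's median was -0.82. Serpina3n, an acute phase inhibitor also made outside the liver, went the other way, at 6.30, 7.27 and 8.12. The kidney marker Kap stood at 6.05, 4.67 and 6.36, one of 3 of 7 kidney markers above background. Between Control and Iso the acute phase genes above background were all lower, and 9 of 13 liver markers were lower too. The mean level of each list was highest on Iso+Insl6, at 8.20 for liver and 6.40 for acute phase genes. The part of liver-derived RNA in any result here was not tested.

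**Figure D5:**
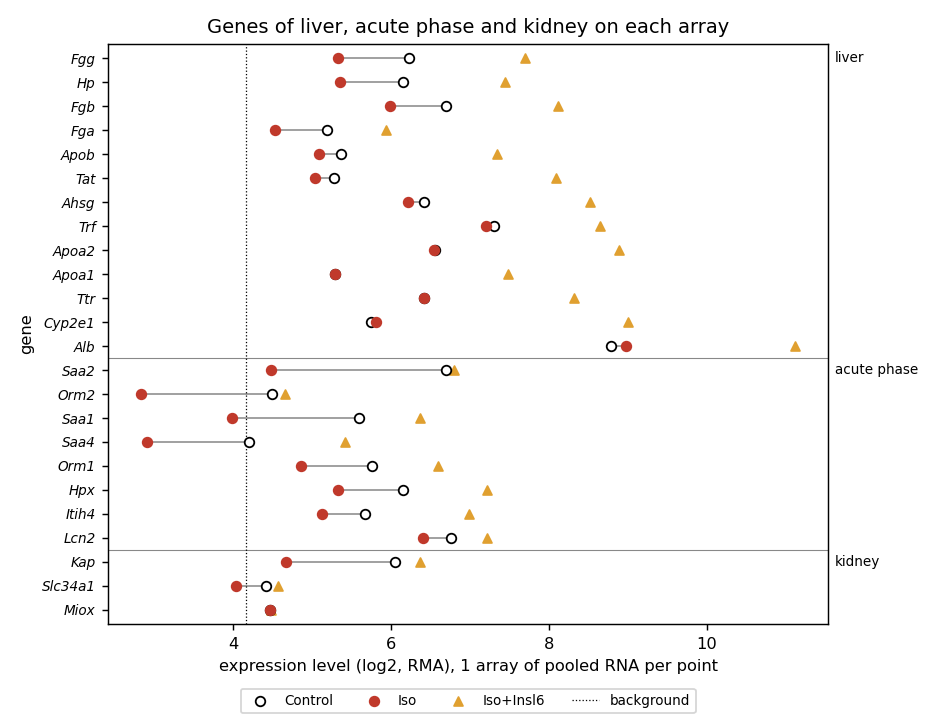
Expression level (log2, horizontal axis) of liver, acute phase and kidney genes above background (vertical axis) on the Control (open circles), Iso (red circles) and Iso+Insl6 (triangles) arrays, 1 array of pooled RNA per point; the dotted line is background. All 8 acute phase genes are lowest on Iso. Alb, Ttr, Apoa1 and Cyp2e1, the only liver markers not lower on Iso, nearly coincide on Control and Iso and lie higher on Iso+Insl6.

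Further genes among the 20 largest differences in each direction belong to none of the lists. Higher on Iso were Zfp738, a zinc finger gene (3.87, 5.09 and 5.15, at least 1.91-fold), Ceacam2, an adhesion molecule (4.04, 5.07 and 4.80, at least 1.88-fold), Abca6, a lipid transporter (6.20, 7.06 and 7.14), Ankrd12 (6.22, 7.17 and 6.88) and Shld1, a DNA repair factor (5.15, 6.00 and 6.27). Magea2 (6.78, 7.66 and 6.94), Gpr3, Spin2d and Krt15 were high on Iso alone, the last 3 with Control below background. Lower on Iso were Fam124b (5.28, 3.00 and 3.26, at least 2.17-fold), Tomm5, a subunit of the mitochondrial import pore (5.32, 4.10 and 4.39, at least 2.23-fold), the fatty acid binding protein gene Fabp7 (4.61, 3.00 and 3.23) and Tmem171 (4.54, 3.41 and 3.25). Slc27a2, a fatty acid transporter of liver and kidney (5.33, 4.18 and 6.89), and the protease inhibitor gene Serpina1e (6.46, 5.35 and 8.35) were lowest on Iso and highest on Iso+Insl6.

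Across all 71 lists, which hold 1209 different measured genes, 68 had a gene above background and 41 had no gene past 1.5-fold. Of the 233 genes past the threshold 55 belonged to a list, among them 14 of the clock lists and 11 of the liver, acute phase and kidney lists, and 178 belonged to none.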

How the data were processed

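Gene expression in left ventricle was measured on 3 arrays of pooled RNA. The values deposited are log2 expression levels, 1 probe set per Entrez gene. The submitters' processing notes name RMA and the package affy 1.36.1 for them. Which array was used, which build its probe sets follow and which settings RMA had are not given in the sources used here. Symbols for 23740 of 25206 probe sets came from RefSeq's mouse table (GRCm38.p6), and the 1466 others were left out. No array column was unmatched.

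Differences were taken as Iso minus Control for genes whose higher array reached 4.16, the median over every value of the table. With 1 array per group no test was possible; precision is limited by that number, and a pool does not show how mice vary. Named genes were the 20 largest differences in each direction, the 12 largest among genes at 8 or above, list members past 1.5-fold or otherwise up to 4 with the largest difference, members that define a list, and 5 heart stress genes; others were chosen after their values were seen. Predicted genes, receptor segments and small RNAs were counted, not named, and a few other genes that stay in the counts are not reported here. The genes compared and the 71 lists (1239 of 1256 entries measured) were chosen with earlier results of these data known. Motifs were searched on both strands of RefSeq promoter windows. Counting was tested on simulated data. Alternatives were other scalings (centring, quantile, cyclic loess with limma 3.58.1 in R 4.3.3), other filters and a 2-fold threshold. Python 3.11.15, numpy 2.4.6 and pandas 2.3.3 were used.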

Additional observations from a re-analysis of the deposited data

How the results depend on the processing

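Counts of genes depended on the filter and threshold more than on scaling. Against 105 higher and 128 lower genes, no filter on level gave 190 and 236, a filter at 6 gave 49 and 55, and a 2-fold threshold gave 19 and 32. Requiring both arrays above background left 79 and 91. Centring each array on genes above background moved the median difference to 0.02 and gave 114 and 117, quantile normalization gave 111 and 125, and cyclic loess changed no count. Adding probe sets without a symbol, an alternative chosen after seeing the data, gave 112 and 136. All 105 higher genes stayed past the threshold under each scaling, with 117 of the 128 lower genes under centring and 122 under quantile normalization. None of the 89 named genes recomputed under the 3 scalings changed sign, and no gene above background moved by more than 0.13. Of the list medians, that of the conduction markers alone turned, from 0.06 to -0.17 with the filter at 6. The median of the acute phase list ran from -0.685 without a filter to -1.095, and that of the cell division list was 0.00 without one. Under quantile normalization Ankrd1 differed by 0.67. No paired analysis was possible because each group had 1 array. Leaving out a replicate was not possible for the same reason, and signal over background limits the genes near 4.16.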
